A study of Mus musculus with 26 samples.

Results

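The genes examined were the protein-coding genes of mouse embryonic stem cells (mESC) whose promoter was open, divided into those with and those without CTCF at the promoter, and compared by their RNA level. A promoter was called open where a region of the merged M-ATAC peak list lay within 1000 bp of an annotated transcript start (GENCODE M21, genome build GRCm38/mm10), and it was called CTCF-bound where a region of the merged CTCF M-ChIP peak list lay within the same distance. Of 21951 annotated protein-coding genes, 21607 were matched in the RNA table by their identifier, 14123 had an open promoter, and 3556 of these were bound by CTCF while 10567 were not. All libraries came from KH2 mESC, grown on irradiated feeder cells in medium with serum and LIF and freed of feeders by pre-plating, and the RNA-seq samples were labelled WT. M-ATAC and M-ChIP are ATAC-seq and ChIP-seq in which the transposase carries methylated adaptors and the DNA is bisulfite converted, so that accessibility or binding and DNA methylation are read from the same fragments. The CTCF groups were M-ChIP (n = 2), M-ChIP-NC (n = 2; aliquots kept before conversion, hence no separate cultures) and CTCF ChIP with Nextera adaptors (n = 2), beside M-ATAC (n = 4) and RNA-seq (n = 2).

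The RNA table held 1 value per gene, in TPM (transcript abundance scaled to a fixed total), from both RNA-seq samples merged. It therefore carried no replicate error and no read depth, and no test between genes was made on it. Intervals given over genes are 95% intervals (order statistics for a median, Wilson for a share). They describe the list of genes, cover counting error only and are no test of replicates. The same holds for intervals over reads, where neighbouring cytosines are read from the same fragments and copies made by PCR are not independent. The spread between replicates could be measured for CTCF, by repeating each comparison with the peak list of each library. The deposited peak lists carry no read depth, and they held 31282 and 32911 CTCF regions in the M-ChIP replicates and 38881 in the merged list.

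CTCF is a zinc finger protein that binds a long, directional DNA motif. It blocks the sliding of the cohesin ring along chromatin, and the direction of its motif decides on which side loops are held. CTCF is therefore known both as an insulator between neighbouring genes and as a protein found at many promoters, and its binding is weakened by methylation of CpG dinucleotides in the motif.

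The motif matches behind the strongest and the most contrasting promoters are shown so that the binding sites can be set beside the RNA levels. Each is the best deposited FIMO match to the CTCF matrix in the bound region, 19 bases long, written 5′ to 3′ on the motif's own strand, with CpG dinucleotides in capitals. All 43074 deposited matches had the same letters as the GRCm38 genome at their stated positions. The first set holds the 10 open promoters with the highest CTCF fold enrichment among regions that had a motif match and were found in both M-ChIP replicates.
Rapgef1: gggccatcagggggCGctg
Med4: tgccctgtagatggCGcta
Theg: tagccagaagagggtgcca
Adck5: CGacctcaaggggcCGctg
Zfp384: tgcccagcaggaggCGctg
Npl: aggccagaagagggcacta
Adprhl2: gggccacaagggggCGctg
Rrp1: CGgccactgagaggCGgta
Gins4: tCGccacaagaCGgCGctg
Rbm17: CGgccaagagatggCGcca
The second set holds 4 of the genes with the highest TPM among promoters chosen in the same way.
Hsp90aa1: tgaccagcaggtggCGcta
Rpl38: gaaccagaagagggcaggg
Rps29: aCGccagtaggtgtcagta
Rpl26: gagcCGctagatgtCGcta
The third set holds the 5 with the highest CTCF fold among such genes under 0.1 TPM.
Dusp13: tggccactagagggcagac
Wbscr28: accaCGccagggggCGcca
BB014433: tcaccaggaggtggcagtg
Ccdc110: tggccaccagagggCGCGc
Tshr: tctacagcagatggcccca

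The most strongly bound open promoter was that of Rapgef1, a guanine nucleotide exchange factor for the small GTPase Rap1, with a fold enrichment over local background of 31.8 in the merged list. Its value was 28.5 and 20.99 in the M-ChIP replicates, 23.4 and 22.1 in M-ChIP-NC and 34.9 and 35.1 in CTCF ChIP, and its RNA level was 24.3 TPM. The motif lay at chr2:29619683-29619701, on the gene strand and 28 bp upstream of the start, outside any annotated gene. Med4, a subunit of the Mediator complex, reached 31.7 in the merged list and 27.8, 16.8, 18.4, 24.6, 33.5 and 36.3 in the 6 libraries in the same order, at 52.1 TPM. Its motif, at chr14:73509894-73509912, lay 122 bp upstream on the gene strand, again outside annotated genes. The libraries therefore spread widely. In both genes the merged value lay above both M-ChIP replicates, and the CTCF ChIP values were the highest. The lists carry no read depth, so folds of different lists were not put on a common scale.

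The other 8 of the strongest promoters had merged folds from 28.96 down to 26.5. Gins4, a subunit of the GINS complex of the replication helicase, had its motif at chr8:23237883-23237901, 233 bp upstream on the gene strand, and was at 84.3 TPM. Rbm17, a splicing factor, was at 179.7 TPM, with a motif at chr2:11603354-11603372 that lay 101 bp upstream of the nearest start on the opposite strand, in an intron of a longer Rbm17 transcript. Rrp1, which acts in ribosomal RNA processing, was at 138.5 TPM, with a motif at chr10:78413096-78413114, 62 bp upstream on the gene strand. The RNA levels behind almost equal CTCF folds thus differed widely.

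Adprhl2 encodes a hydrolase that removes ADP-ribose from proteins. Its motif at chr4:126321744-126321762 was 50 bp upstream on the gene strand and the gene was at 31.3 TPM. The motif of Adck5, which codes for a kinase-like protein, was at chr15:76576296-76576314, 53 bp upstream on the gene strand, with 9.65 TPM. Zfp384, a zinc finger transcription factor, was at 25.95 TPM and had its motif 305 bp downstream of the start, on the opposite strand and in an exon, at chr6:125030700-125030718. Npl, a lyase of sialic acid breakdown, was at 67.3 TPM with the motif 942 bp upstream on the opposite strand, at chr1:153550978-153550996.
Theg, a gene known from spermatids, was the only one of these 10 under 1 TPM, at 0.51, with CTCF folds of 21.7 and 27.5 in the M-ChIP replicates. Its motif, at chr10:79580978-79580996, lay 867 bp upstream of the nearest start in an intron, on the opposite strand, and its M-ATAC region was in the merged list but in none of the 4 M-ATAC samples.

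At the upper end of expression, Hsp90aa1, a cytosolic chaperone, was at 4370 TPM with a merged CTCF fold of 19.2. Its fold was 15.4 and 11.1 in M-ChIP, 12.5 and 7.64 in M-ChIP-NC and 21.7 and 23.0 in CTCF ChIP, and its motif at chr12:110703104-110703122 was 385 bp upstream on the gene strand. The 3 ribosomal protein genes of this set, whose products are parts of the cytoplasmic ribosome, were at 3987 TPM (Rpl38), 3903 TPM (Rps29) and 2806 TPM (Rpl26). All 3 had the motif upstream on the gene strand, at chr11:114668455-114668473 (60 bp), chr12:69159740-69159758 (563 bp) and chr11:68901462-68901480 (112 bp). Their merged folds, 9.81, 11.3 and 10.5, were all below that of Hsp90aa1, and Rpl38 had no region in M-ChIP-NC replicate 1. The M-ATAC region of Rpl38 was found in M-ATAC replicate 1 only, and that of Rpl26 was missing from replicate 1. Those of Hsp90aa1 and Rps29 were in every M-ATAC sample. Ribosomal protein genes have many near-identical processed copies in the genome, so how the authors' counting divided shared reads makes these TPM values uncertain.

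At the lower end, Dusp13, a dual-specificity phosphatase, was at 0.04 TPM with a merged CTCF fold of 24.5. Its fold was 23.6 and 12.4 in M-ChIP, 12.6 and 17.6 in M-ChIP-NC and 24.3 and 25.2 in CTCF ChIP, and its motif at chr14:21742007-21742025 lay 497 bp upstream on the gene strand, in an intron. Wbscr28 was listed at 0 TPM with a merged fold of 24.4 and a motif at chr5:134907278-134907296, 554 bp upstream on the opposite strand. The M-ATAC region of Dusp13 was in the merged list but in none of the 4 M-ATAC samples, and that of Wbscr28 was in 1 of them.

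BB014433 was also listed at 0, with a merged fold of 22.1 and a motif in its own untranslated region, at chr8:15043059-15043077, 9 bp downstream of the start on the gene strand. Its M-ATAC region, too, was in none of the 4 samples. Ccdc110, a coiled-coil protein gene at 0.01 TPM, had a fold of 22.0 and an intronic motif at chr8:45934947-45934965, 314 bp downstream on the opposite strand, and its M-ATAC region was in 2 of the 4 samples. Tshr, the receptor for thyroid-stimulating hormone, was at 0.06 TPM with a fold of 21.5 and an intronic motif at chr12:91400366-91400384, 619 bp upstream of the nearest start on the gene strand. Its M-ATAC fold, 29.3 in the merged list and from 22.8 to 25.7 in the 4 samples, was the highest among the genes shown with a motif sequence. The 5 open promoters without CTCF that had the highest TPM were Eef1a1 (12296 TPM), the elongation factor of translation, Rplp1 (9680 TPM) and Rpl23a (6332 TPM), both ribosomal proteins, Ftl1 (6299 TPM), the ferritin light chain, and Dppa5a (5394 TPM), a gene typical of pluripotent cells. The M-ATAC regions of Rplp1, Rpl23a and Dppa5a were each in only some of the 4 samples, and those of Eef1a1 and Ftl1 were in all 4.

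**Figure D1:**
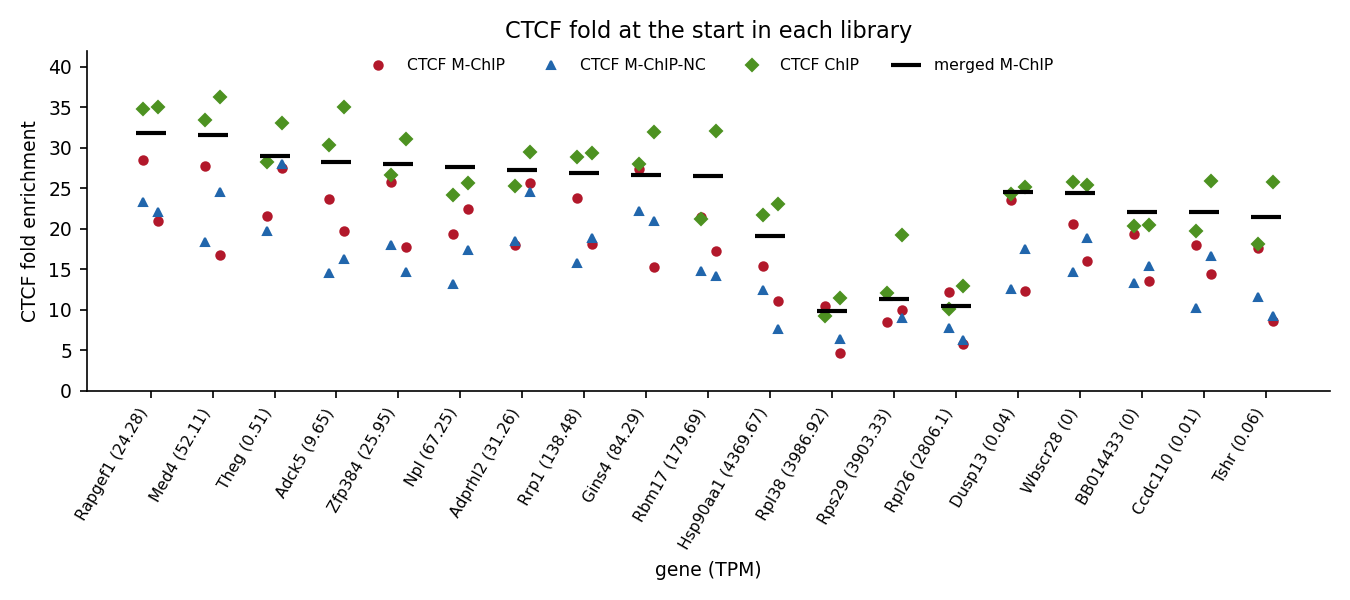
CTCF fold enrichment over local background (vertical axis) at the 19 bound promoters whose motifs are shown, with TPM in brackets. Circles, triangles and diamonds are single libraries of CTCF M-ChIP, M-ChIP-NC and ChIP, and bars are the merged M-ChIP value. The merged values run from 26.5 to 31.8 in the first set, 9.81 to 19.2 in the second and 21.5 to 24.5 in the third, and each set was chosen for high fold or for high TPM, so that its place follows from the choice.

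CTCF was present at 25.2% of open promoters (3556 of 14123; interval 24.5 to 25.9%). The M-ChIP replicates gave 22.3% and 17.9% on their own lists (20.1% ± 3.07, SD, n = 2), M-ChIP-NC gave 18.2% ± 2.41 (n = 2) and CTCF ChIP 30.5% ± 5.15 (n = 2). The share therefore varied more between libraries than its interval over genes. The lists also differed in length, with 22261 and 30470 regions in M-ChIP-NC and 40046 and 49633 in CTCF ChIP. A longer list can reach more promoters, and how much of the difference came from list length was not tested. Of the 3556 bound genes, 2310 (64.96%) had a region that overlapped a peak of both M-ChIP replicates, 962 (27.1%) had one in a single replicate and 284 (7.99%) had one in neither, and 1805 (50.8%) had a region found in all 6 CTCF libraries. The median CTCF fold, taken as the highest of each gene, was 12.5 for genes with a region in both replicates. It was 7.26 with a single one and 5.24 with neither. The merged list pools the same 2 replicates, so this order follows in part from how the peaks were called. Of all 38881 merged CTCF regions, 3900 (10.03%) lay at an open promoter, and their median fold was 9.82 against 9.68 for the other 34981 regions.

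RNA levels were nearly the same with and without CTCF. The median was 13.3 TPM (interval 12.1 to 14.2) for the 3556 genes with CTCF and 12.2 TPM (11.7 to 12.8) for the 10567 genes without, and the middle 50% of genes ran from 2.58 to 38.2 TPM and from 2.04 to 38.0 TPM. On the log2(TPM + 1) scale the medians differed by 0.11, with minus without. The same difference was 0.06 and 0.12 with the M-ChIP replicate lists (0.09 ± 0.04, n = 2), -0.05 and 0.05 with M-ChIP-NC and 0.03 and 0.14 with CTCF ChIP. The 6 libraries thus did not share a direction. It also changed sign when only the upstream-most start of each gene was used (-0.13) and when genes under 1 TPM were left out (-0.02).

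The groups differed most at the bottom of the range. Of genes with CTCF, 82.8% (81.5 to 84.0%) were at 1 TPM or more, beside 81.2% of all open promoters and 80.7% (79.9 to 81.4%) of those without CTCF. RNA was listed at 0 for 1.69% (1.31 to 2.17%) of genes with CTCF and 2.60% (2.32 to 2.92%) of genes without. At the top, 9.48% and 9.67% reached 100 TPM. The difference of 2.06 percentage points at 1 TPM reversed to -1.04 with the upstream-most start only, and was 0.764 with regions in both M-ChIP replicates, 1.10 without M-ChIP replicate 1 and 0.721 within classes of start number. Read by TPM class, CTCF was found at 60 of 335 open promoters listed at 0 (17.9%; 14.2 to 22.4%), at 23.9% of 2317 genes between 0 and 1 TPM, at 25.6% of 3781 genes from 1 to 10 TPM, at 25.9% of 6331 genes from 10 to 100 TPM and at 24.8% of 1359 genes at 100 TPM or more. The share was lowest in the class at 0, and the interval of that class did not reach the share over all open promoters, while the other 4 classes lay within 2 percentage points of each other.

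RNA levels were similar with and without a motif match. A deposited motif match was found for 3131 of the bound genes (88.05%; 22.2% of all open promoters), whose median was 13.3 TPM (12.03 to 14.3), and the 425 bound genes without a match had a median of 13.7 TPM (10.2 to 17.01). The 2 kinds differed in CTCF fold, with medians of 10.9 (10.7 to 11.1) with a match and 6.84 (6.48 to 7.25) without. M-ATAC fold, the accessibility measure, was similar in all groups, with medians of 10.5, 10.9 and, without CTCF, 10.97.

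Where no M-ATAC region was near, RNA was low, and it was higher with CTCF than without. Among the 7484 genes without an open promoter, 396 had CTCF, with a median of 0.18 TPM (0.13 to 0.25), and 28.3% of them (24.1 to 32.9%) were at 1 TPM or more. The 7088 genes with neither were at a median of 0 TPM, and 10.5% (9.85 to 11.3%) were at 1 TPM or more. Both values were far below those of open promoters.

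The distance limit of 1000 bp was not a boundary in expression. Genes whose start was covered by a CTCF region (1095 genes) had a median of 14.3 TPM (12.4 to 15.8), and the median was 14.2 TPM for a gap of 1 to 250 bp, 12.8 TPM for 251 to 500 bp and 10.8 TPM for 501 to 1000 bp. Just inside the limit, 156 genes with a gap of 901 to 1000 bp had a median of 10.6 TPM (6.29 to 13.2), and just outside it 169 genes with a gap of 1001 to 1100 bp had 9.51 TPM (6.68 to 11.7). Farther out the median was 13.1 TPM for 1001 to 2000 bp, 15.4 TPM for 2001 to 5000 bp, 14.1 TPM for 5001 to 10000 bp and 11.3 TPM for 10001 to 50000 bp. It was lowest for the 868 open promoters with no CTCF region within 50000 bp, at 3.90 TPM (2.99 to 5.34), of which 64.7% were at 1 TPM or more.

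Genes with more annotated starts were more often near a CTCF region, and they were also more highly expressed. A region near any start counted, so each further start added a window in which CTCF could be found. The share with CTCF therefore rises in part by definition, and how far was not tested. The share with CTCF was 17.3% of 1649 open genes with 1 start, 18.5% of 1798 with 2, 22.3% of 3625 with 3 to 4, 27.5% of 4680 with 5 to 8 and 35.4% of 2371 with 9 or more. Within these classes the median TPM with and without CTCF was 2.11 and 1.91 for 1 start, 5.02 and 6.51 for 2, 9.62 and 11.2 for 3 to 4, 15.7 and 17.7 for 5 to 8 and 21.5 and 24.5 for 9 or more. In the 4 classes above 1 start, the genes with CTCF were the lower ones, by 0.16 to 0.32 on the log2(TPM + 1) scale (differences of -0.32, -0.20, -0.16 and -0.18). The classes were drawn after the data had been seen.

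**Figure D2:**
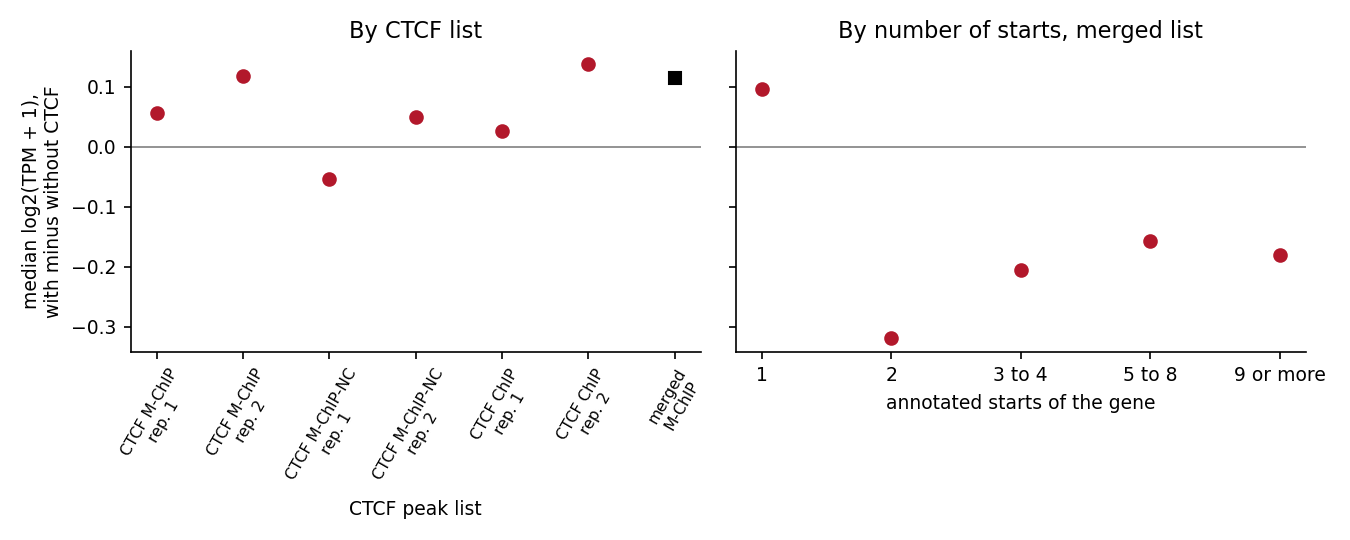
Difference in median log2(TPM + 1), genes with minus genes without CTCF. Left, the 6 single CTCF libraries (circles) and the merged list (square) lie between -0.05 and 0.14; right, within classes of the number of annotated starts the difference is 0.10 for 1 start and lies between -0.32 and -0.16 for the others.

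Accessibility, by contrast, went with the RNA level in both groups. Open genes were divided into 5 equal classes of M-ATAC fold. From the lowest to the highest, median TPM was 4.56, 10.9, 15.1, 17.5 and 20.5 with CTCF and 2.93, 9.63, 13.9, 18.3 and 18.9 without. With CTCF the level was higher in 4 of the 5 classes and lower in the fourth, and the median of the 5 differences was 0.12 on the log2(TPM + 1) scale. That median reversed to -0.0366 with the upstream-most start only, and was 0.0248 without M-ChIP replicate 2 and 0.0181 with regions in both CTCF ChIP samples. The lowest class differed most, with intervals of 3.40 to 5.69 TPM with CTCF and 2.43 to 3.52 TPM without, and 69.2% and 63.02% of its genes at 1 TPM or more. CTCF was most frequent in the middle class (28.2%; 26.5 to 29.8%) and least frequent in the highest (21.3%; 19.8 to 22.9%).

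CTCF fold did not follow the RNA level. Across the 3556 bound genes Spearman's rho between CTCF fold and TPM was -0.0201, and it was between -0.0283 and 0.0128 with the lists of the 6 libraries. This is a correlation across genes of merged libraries, with peak height in common to all points, and genes are not independent replicates. In 5 equal classes of CTCF fold, median TPM was 12.4, 15.03, 13.8, 12.1 and 13.2 from the weakest to the strongest, with no order. CTCF fold and M-ATAC fold had a rho of 0.0377, while M-ATAC fold and TPM had a rho of 0.229 among bound and 0.252 among unbound genes. By number of CTCF regions, the median was 12.9 TPM for 3070 genes with 1 region, 14.8 TPM for 437 with 2 and 15.5 TPM for 49 with 3 or more.

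Base composition was similar in both groups. In the 500 bp on each side of the upstream-most start, the median GC content was 58.3% with CTCF and 58.4% without, and the median ratio of observed to expected CpG was 0.694 and 0.71. A ratio of 0.6 or more was found at 65.8% (64.3 to 67.4%) of promoters with CTCF and 68.1% (67.2 to 68.96%) of those without. Within CpG-rich promoters the median was 19.01 TPM with and 17.9 TPM without CTCF, and within CpG-poor ones it was 4.56 TPM (3.83 to 5.41) and 3.73 TPM (3.33 to 4.22). A start of another protein-coding gene on the opposite strand within 1000 bp of any start was less frequent with CTCF, at 14.8% (13.6 to 15.97%) against 19.01% (18.3 to 19.8%). Whether such starts pointed away from each other, as at a bidirectional promoter, was not checked. By chromosome, expression was higher with CTCF on 12 of the 19 autosomes and lower on the other 7, with differences from -0.28 to 0.72 on the log2(TPM + 1) scale. The X chromosome lay apart, with CTCF at 11.1% of open promoters (49 genes with and 393 without, against 21.2 to 30.9% on the autosomes) and a difference of 0.93.

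CTCF summits lay mostly upstream of the start. The nearest CTCF summit was at a median of 266.5 bp from its start without regard to side, with the middle 50% of genes from 93 to 634 bp, and at -78.5 bp with upstream counted as negative. It was upstream in 65.5% of genes (63.9 to 67.01%). The 100 bp just upstream of the start held 705 of the summits (19.8%), while the 100 bp just downstream held 231 (6.50%). M-ATAC summits of genes without CTCF were closer, at a median of 64 bp from the start and upstream in 70.05% of genes, and those of genes with CTCF were at the same median of 64 bp.

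**Figure D3:**
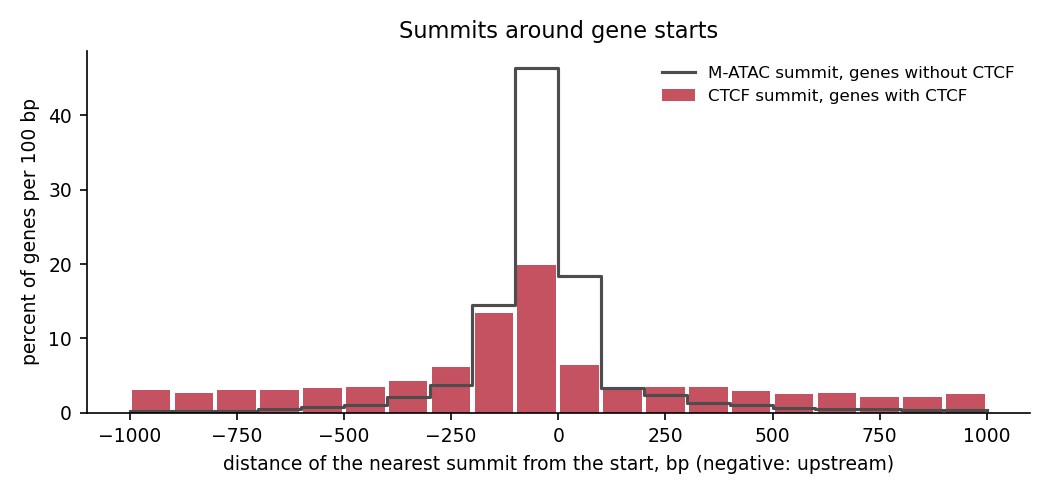
Percent of genes (vertical) by distance of the nearest summit from the start in 100-bp bins, upstream negative. Filled bars are CTCF summits of the 3556 genes with CTCF, and the line is M-ATAC summits of the 10567 genes without; CTCF peaks at 19.8% in the bin just upstream and falls to 6.50% in the bin just downstream.

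The side of the summit went with the RNA level. With CTCF upstream (2328 genes) the median was 14.5 TPM (13.2 to 15.6), and with CTCF downstream (1219 genes) it was 10.9 TPM (9.77 to 12.8). Among the downstream classes the median was 12.5 TPM at 1 to 100 bp, 14.8 TPM at 101 to 250 bp, 9.81 TPM at 251 to 500 bp and 9.995 TPM beyond 500 bp. Among the upstream classes it was 13.9 TPM under 100 bp, 15.6 TPM from 100 to under 250 bp, 15.6 TPM from 250 to under 500 bp and 12.8 TPM at 500 bp or more. The median M-ATAC fold was 10.7 upstream and 10.4 downstream, and the median CTCF fold 10.8 and 9.86. Of the 2938 distinct motifs in the nearest regions, 41.6% lay in introns, 31.7% outside annotated genes, 9.94% in untranslated regions, 6.88% in coding sequence and 9.87% in other exons.

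The motif was more often on the gene strand, that is, its 5′ to 3′ direction pointed the way the gene is transcribed. This was so for 56.8% (55.003 to 58.5%) of the 3085 genes with a match in the nearest region, and for 57.1% ± 0.444 (n = 2) with the M-ChIP replicate lists, 57.8% ± 0.189 (n = 2) with M-ChIP-NC and 56.7% ± 0.162 (n = 2) with CTCF ChIP. All lists were scored with the same deposited motif matches, so these values are not independent of each other. The excess depended on position. Where the middle of the motif lay under 100 bp upstream of the start, 476 of 697 genes (68.3%; 64.7 to 71.6%) had the motif on the gene strand. From 100 to under 500 bp upstream the share was 58.5% (54.96 to 61.9%) and at 500 bp or more upstream 51.6% (47.6 to 55.7%). Downstream of the start it was 57.4% (49.9 to 64.6%) within 100 bp, 47.2% (42.4 to 52.03%) at 101 to 500 bp and 51.2% (46.6 to 55.7%) farther on.

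The directional excess just upstream was found in every library list and on every autosome. Every list was scored with the same deposited motif matches, all of which lay in merged M-ChIP regions. The libraries thus counted parts of the same set of motifs and are no independent repeats. In the 6 CTCF libraries the share within 100 bp upstream was 69.4% and 70.99% (M-ChIP), 72.8% and 69.8% (M-ChIP-NC) and 68.2% and 67.8% (CTCF ChIP). It was above 50% on all 19 autosomes, from 58.6 to 83.3%, and 37.5% of only 8 motifs on the X chromosome. It was 67.3% for 364 genes on the plus strand and 69.4% for 333 on the minus strand. For 605 genes without a protein-coding start on the opposite strand nearby it was 70.1% (66.3 to 73.6%), and for the 92 genes with such a start 56.5% (46.3 to 66.2%). Motif quality was alike in both directions, with FIMO p of 1e-05 or less for 76.9% of the motifs on the gene strand and 75.6% of those on the opposite strand.

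**Figure D4:**
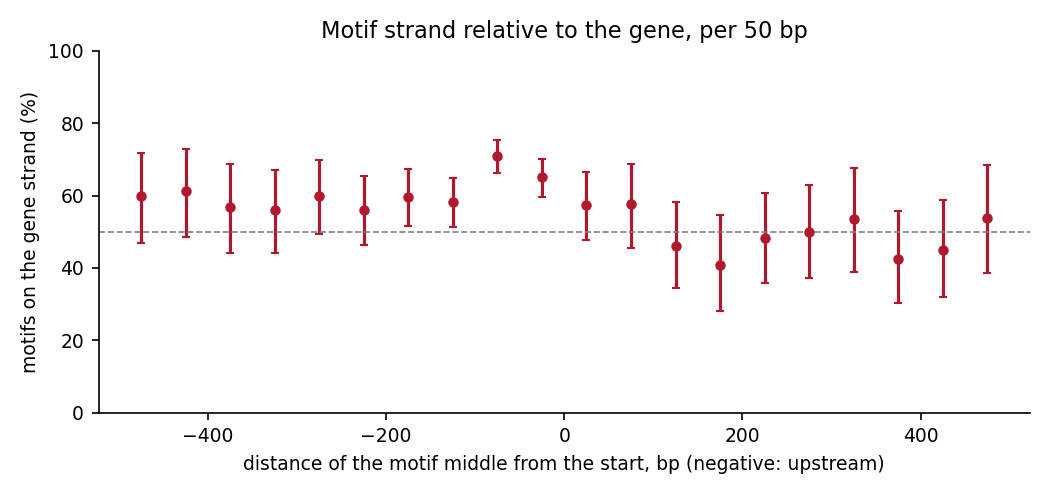
Percent of motifs on the gene strand (vertical, 95% Wilson intervals) by distance of the motif middle from the start in 50-bp bins, upstream negative, with 50% dashed. The 2 bins just upstream, at 70.9% and 65.1%, are the highest, and the intervals of all bins from 101 bp downstream include 50%.

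Within 100 bp upstream, genes with the motif on their own strand had more RNA. Their median was 15.5 TPM (12.4 to 17.5; 476 genes) against 10 TPM (7.61 to 15.4; 221 genes) with the motif on the opposite strand, and 84.9% against 78.7% were at 1 TPM or more. The difference was 0.59 on the log2(TPM + 1) scale with the merged list and 0.61 and 0.82 with the M-ChIP replicates 1 and 2. It was 0.09 when genes under 1 TPM were left out. By TPM class the motif was on the gene strand in 60.4% (51.1 to 68.97%) of 111 genes between 0 and 1 TPM, 66.5% of 188 from 1 to 10 TPM, 70.9% of 320 from 10 to 100 TPM and 74.3% (62.97 to 83.1%) of 70 at 100 TPM or more. These intervals overlap. Median CTCF fold was 11.99 on the gene strand and 11.1 on the opposite strand, and median M-ATAC fold 10.02 and 10.2. Farther upstream the order was the opposite, with 15.3 TPM on the gene strand and 17.1 TPM on the opposite strand from 100 to under 500 bp, and 12.2 and 13.1 TPM at 500 bp or more. Over all distances the medians were 13.4 TPM (11.9 to 14.9) and 12.6 TPM (11.2 to 14.7). The class under 100 bp was chosen after its strand excess had been seen.

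CTCF motifs at open promoters carried little methylation. In CTCF M-ChIP, cytosines in CpGs of motif matches with at least 5 reads were methylated at a mean of 3.63% at open promoters (6952 cytosines, 2491 of 79145 reads) and 14.9% in the other CTCF regions (27007 cytosines, 37013 of 305730 reads). The median coverage was 10 reads in both. The difference was -11.3 percentage points, and it was negative on all 20 chromosomes compared, from -15.6 to -7.68. It was -6.94 points with at least 10 reads and -14.6 points with at least 1. Above 80% methylation were 31 cytosines at open promoters (0.446%) and 706 elsewhere (2.61%). These values were merged over replicates, and only reads of CTCF-bound fragments enter them.

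Among the motifs shown above, the 6 cytosine positions at Gins4 were read as methylated in 5 of 327 reads (1.53%; 0.655 to 3.53%), and the 4 at Ccdc110, a gene at 0.01 TPM, in 3 of 73 reads (4.11%; 1.41 to 11.4%). At Rapgef1 no methylated read was found among 128, and at Wbscr28, listed at 0 TPM, none among 80, which leaves room for up to 2.91% and 4.58%. The motifs of Dusp13, BB014433 and Tshr held no CpG and had no such reads. In M-ATAC, cytosines at open promoters were methylated at a mean of 0.848% with CTCF (212913 cytosines) and 0.722% without (555083 cytosines). Within promoters that had CTCF, the mean was 1.21% inside the CTCF region and 0.749% outside it.

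The gene lists that follow were described by how many of their open promoters had CTCF, read against 25.2% over all open promoters. Among 17 open genes of CTCF and the cohesin machinery, 9 had CTCF (52.9%; 30.96 to 73.8%), all with a motif match. Of these motifs, 8 were on the gene strand, beside 56.8% of all bound promoters with a motif in the nearest region. Several of them lay under 100 bp upstream, where the share over all bound promoters was 68.3%. The bound genes included Ctcf itself, at 82.9 TPM with a merged fold of 12.6, and the cohesin ring subunit Smc3, at 160.2 TPM with a fold of 17.96. At Ctcf the fold was 12.1 and 6.43 in M-ChIP, 9.70 in M-ChIP-NC replicate 1 with no region in replicate 2, and 14.03 and 18.2 in CTCF ChIP. Both STAG subunits of mitotic cohesin were bound at the start itself, Stag1 at a fold of 13.9 with 45.8 TPM and Stag2 at 18.2 with 48.01 TPM. The cohesin regulator Pds5b had a fold of 15.3 with 23.6 TPM. Rad21, Smc1a and Wapl, the other ring subunits and the release factor, were open without CTCF at 222.4, 90.2 and 112.8 TPM.

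Clustered protocadherins, cell-surface proteins whose alternative promoters are known for CTCF sites, had the highest share of the lists. Only 17 of their 57 genes were open, and 13 of these had CTCF (76.5%; 52.7 to 90.4%), 10 with a region over the start. All 8 that had a motif in the nearest region carried it on the gene strand, again beside 56.8% over all bound promoters. Most of these 8 motifs lay under 100 bp upstream, where the share over all bound promoters was 68.3%. Pcdhgb6 had the highest fold, 16.5, and was at 0.34 TPM, and Pcdhac1 had 14.4 at 0.01 TPM. The 13 ranged from 0 to 3.43 TPM, while 2 of the 4 without CTCF, Pcdhga8 (ENSMUSG00000023036, the first of a pair of genes of that symbol) and Pcdhgc3, were at 22.7 and 15.3 TPM. The other gene with the symbol Pcdhga8 was not open, had a CTCF region over its start and was at 0.17 TPM. Members of a cluster share their constant exons, so the reads behind these values could have been divided in more than 1 way.

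Of 76 open genes for cytoplasmic ribosomal proteins, 27 had CTCF (35.5%; 25.7 to 46.7%), with a median of 2114 TPM against 2308 TPM for the 49 without. Rpl5 had the highest fold, 20.7, with the motif 31 bp upstream on the gene strand and 129.8 TPM, and Rps3a1 followed with 19.6 and 1689 TPM. Of 24 open cell cycle and growth genes, 9 had CTCF (37.5%; 21.2 to 57.3%). Trp53, the p53 tumour suppressor, was at 356.9 TPM with a fold of 19.7, and 16.2 and 16.04 in the M-ChIP replicates. Its inhibitor Mdm2 was at 121.7 TPM with a fold of 13.02 over the start, and Mycl, a MYC family member, at 14.7 TPM with a fold of 15.3.

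Pluripotency genes were near the background, with CTCF at 6 of 24 open promoters (25%; 11.999 to 44.9%). Their median was 132.5 TPM with CTCF and 119.8 TPM without. Fgf4, a growth factor of pluripotent cells, had the highest fold, 17.6, with a summit 998 bp upstream and 132.3 TPM. Its fold was 13.7 and 15.7 in M-ChIP, 12.5 and 14.1 in M-ChIP-NC and 17.7 and 19.9 in CTCF ChIP. Tdgf1, a co-receptor for Nodal, had 14.4 and was at 941.9 TPM. Pou5f1, the OCT4 gene, had a merged fold of 3.54 only, with a region in neither M-ChIP replicate. The core factors Sox2 and Nanog were open without CTCF, at 476.5 and 461.4 TPM.

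Among developmental genes, 5 of 28 open lineage factors had CTCF (17.9%; 7.88 to 35.6%), with a median of 1.00 TPM against 1.97 TPM without. Neurog2, a proneural factor, had a fold of 14.7 at 0.06 TPM, and Olig2, a factor of the oligodendrocyte lineage, 13.1 at 9.64 TPM. Of 21 open Hox genes, which set position along the body axis, 5 had CTCF (23.8%; 10.6 to 45.1%), and 4 of 4 with a motif in the nearest region carried it on the gene strand (56.8% over all bound promoters). Hoxa5 had 19.1 at 0.68 TPM and Hoxa7 17.2 at 0.99 TPM, both with the region over the start. Hoxc5 and Hoxc10 had the same highest fold, 14.6, and the same fold in every CTCF library. Both values thus appear to come from a single region within 1000 bp of a start of each gene. Their nearest regions differed. The region nearest Hoxc5 lay by the start at chr15:103013815 and held no motif match. That of Hoxc10 lay by the start at chr15:102966796 and held a match.

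The remaining lists were at or below the background. CTCF was at 2 of 9 open genes for DNA methylation enzymes and their partners (22.2%; 6.32 to 54.7%), the methyltransferases Dnmt3a (fold 10.2, 67.5 TPM) and Dnmt3b (fold 7.55, 48.6 TPM). It was at 66 of 332 open zinc finger genes named Zfp (19.9%; 15.9 to 24.5%), with a median of 8.23 TPM against 6.90 TPM without. It was at 4 of 55 open histone genes (7.27%; 2.86 to 17.3%), with Hist1h4j the strongest at a fold of 13.2. All 4 were under 1 TPM, but the list was low as a whole. Its median was 0.655 TPM with CTCF and 0.73 TPM for the 51 open genes without.

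The label of the cells was checked against marker genes. All 10 stem cell markers were expressed, from 132.3 to 5394 TPM. Of 14 markers of the fibroblast feeders, 12 were at 1 TPM or more, with a summed level of 924.2 TPM against 9052 TPM for the stem cell markers. Fn1 (611.6 TPM), Acta2 (85.3 TPM), Tagln (62.99 TPM) and Col1a1 (48.7 TPM) made up most of it, and Lum (0.08 TPM) and Twist2 (0.43 TPM) were near 0. Col1a1 and Col1a2 were among the open genes with CTCF, and the part of feeder RNA in these results was not tested. In bulk samples, fewer cells of a type and less RNA per cell cannot be told apart. The 4 M-ATAC samples taken singly gave from 9982 to 10980 open genes, with CTCF at 25.3 to 25.8% of them, and 71.4 to 79.6% of the bound and 70.4 to 77.1% of the unbound open genes were found again in each.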

How the data were processed

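Reads were trimmed and aligned to mm10 by the authors (Trim Galore 0.4.4, Bismark 0.18.1, Bowtie2, SAMtools 1.3, per the submitters' processing notes). Peaks were called by the authors with MACS2 for each library and on merged replicates, and the deposited lists give each summit's fold over local background, a ratio, and the −log10 of its q value. The deposited motif matches carry a FIMO score and p-value (0.0001 at most). The deposited methylation tables hold the count of methylated and unmethylated reads per cytosine, merged over replicates. The deposited TPM values were merged over both RNA-seq samples by the authors and summed to 1000000. HTSeq was among the tools named, and the RNA aligner and annotation were not given in the sources used here. The RNA table was unstranded, so reads of overlapping or antisense genes cannot be told apart.

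Gene identifiers were matched to GENCODE M21, and every annotated transcript start was used. Distance, motif and motif strand were those of the CTCF region nearest to any start of the gene. CTCF fold and M-ATAC fold were the highest among all regions within 1000 bp of any start. In genes with several CTCF regions, the fold and the motif can therefore come from different regions. Levels were compared as medians of TPM and of log2(TPM + 1), with no filter on low values and no test, since the RNA table held a single merged value per gene. Methylation used cytosines with at least 5 reads. Replicates were not stated to come from separate cultures. Genes named were the 10 with the highest CTCF fold, the 5 with the highest TPM and the 5 with the highest fold under 0.1 TPM, among bound genes with a motif and a peak in both M-ChIP replicates, the 5 unbound genes with the highest TPM, and up to 5 per list by CTCF fold or TPM. 1 gene that the rule names is not reported here. Other list members were named after their values had been seen. The genes and lists were chosen with earlier results of these data known. The computations were tested on simulated data and run under Python 3.11.15, with pandas 2.3.3 for the joins, numpy 2.4.6 and scipy 1.17.1 for the intervals, pyfaidx 0.9.0.4 for genome sequence and matplotlib 3.10.9 for the plots. KLF4 libraries were not used here.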

Additional observations from a re-analysis of the deposited data

How the results depend on the processing

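No paired analysis was possible because no result came from a test: genes were compared within each peak list, the RNA level was a single merged value, and M-ChIP was not tested against its unconverted aliquots. Of 118 values recomputed under other settings, 60 moved by less than the spread between replicates (for methylation, which was merged, between chromosomes), 50 moved by more and 8 changed sign, and the cause was not tested. The classes of start number and the settings for motifs within 100 bp upstream were chosen after seeing the data.

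With a window of 500 bp, CTCF was at 19.0% of open promoters, 86.7% of them had a motif, 58.9% of motifs were on the gene strand, the median distance was 153 bp and rho of CTCF fold with TPM changed sign to 0.00637. With 3 kb, these were 41.8%, 91.2%, 54.3%, 854 bp and -0.0348, the expression difference (log2 scale, with minus without CTCF) was 0.18 and the difference in genes at 1 TPM or more was 3.87 points. With the upstream-most start only, CTCF was at 17.1%, the expression difference reversed to -0.13, that in genes at 1 TPM to -1.04 points and that within M-ATAC classes to -0.0366, while motifs were found in 84.9% and lay on the gene strand in 60.5%, or 75.6% within 100 bp upstream. With regions in both M-ChIP replicates, the values were 16.4% with CTCF, 0.764 points, rho -0.0113, 93.9% with a motif, 70.9% on the gene strand within 100 bp upstream and an expression difference by motif strand of 0.82. Leaving out either M-ChIP replicate gave 17.9 to 22.3% with CTCF, expression differences of 0.0551 to 0.117, 1.10 to 1.84 points, rho of -0.0105 to -0.00108, 86.7 to 87.6% with a motif, 56.8 to 57.4% on the gene strand, 251 to 313.5 bp, 0.0248 to 0.11 within M-ATAC classes, 69.4 to 70.99% on the gene strand within 100 bp upstream and 0.61 to 0.82 by motif strand.

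With regions in both CTCF ChIP samples, the expression difference was 0.0241, or 0.0181 within M-ATAC classes, rho reversed to 0.00641 and 79.1% had a motif. The deposited motif matches lay only in merged M-ChIP regions, so CTCF ChIP regions elsewhere could have no match. With M-ATAC regions in all 4 samples the expression difference was 0.00722. With genes at 1 TPM or more, it reversed to -0.0247, with 0.0293 within M-ATAC classes, rho -0.0103, 69.9% on the gene strand within 100 bp upstream and 0.0949 by motif strand. With no other start within 1 kb, rho reversed to 1.65e-05, the difference within M-ATAC classes was 0.29, and 57.3% of motifs, or 69.8% within 100 bp upstream, were on the gene strand. Within classes of start number, the expression difference reversed to -0.18 and was 0.721 points for genes at 1 TPM. With bound promoters that had a motif, rho was -0.0281. A −log10 q of at least 5 gave 90.02% with a motif and a FIMO p of at most 1e-05 gave 70.8%. The methylation difference was -14.6 points with at least 1 read and -6.94 points with at least 10.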
